A study of Homo sapiens with 5 samples.

Results

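The 10 genes followed here are named for their place in the endoplasmic reticulum (ER) stress and ATF4 responses, and they are ATF4, DDIT3, TRIB3, CHAC1, ASNS, SESN2, DDIT4, HSPA5, HERPUD1 and XBP1. They were read in 5 RNA-seq libraries of HT1080 cells, a human fibrosarcoma line. They were chosen by symbol, 10 of the 27189 gene entries in each library, without use of their measured values, although earlier results of these data were known when they were chosen. All cells had been embedded in type I collagen at 2 mg/ml and incubated for 24 h. The low-density library (LD) came from matrices holding 10 cells/mm3 with no cytokine added. The IL-6 and IL-8 libraries came from matrices at the same density to which recombinant IL-6 or IL-8 was added, and the RM library from matrices at that density given both cytokines in a ratio of 5 parts IL-6 to 2 parts IL-8. The high-density library (HD) came from matrices at 50 cells/mm3 with no cytokine added. Each condition was 1 library from 1 sequencing experiment on a single cell line, so there was no replicate error to weigh the differences against, and no test was made. The question put to the libraries was which transcripts shift with cell density and with the cytokines, alone or together.

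When misfolded proteins collect in the ER, 3 sensors of its membrane, PERK (gene EIF2AK3), IRE1 (ERN1) and ATF6, start the unfolded protein response. PERK, like the kinases that sense amino acid shortage, viral RNA or haem shortage, phosphorylates eIF2 alpha, which lowers protein synthesis in general while the mRNA of the transcription factor ATF4 is translated more, so that much of the control of ATF4 lies beyond its mRNA level. ATF4 then drives genes of amino acid supply and redox balance and, when stress persists, DDIT3 (the factor CHOP). IRE1 activates XBP1 by splicing its mRNA, a step that gene-level values do not show, and XBP1 and cleaved ATF6 drive chaperones such as HSPA5 and degradation factors such as HERPUD1.

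The factors of the ER and ATF4 arms are known to bind different sequence elements, and 5 promoters are shown here because they hold a match to one. All 10 genes matched the RefSeq promoter table (GRCh38.p14, 250 bases before and 50 after the gene start, printed 5′ to 3′ on the strand of the gene). Capitals mark the motif matches, searched on both strands. The ER stress response element (ERSE, which reads CCAAT, any 9 bases, then CCACG) was found in 0.0769% of 35116 promoters in the table, and it stood in those of HSPA5, 66 bases before the start, and XBP1, 52 bases before it. ERSE-II (ATTGG, any base, then CCACG) was found in 0.0541% of promoters, HERPUD1 among them at 117 bases before the start. The core of the element bound by ATF4 with its partners (TGATGNAA) is common by comparison, in 3.62% of promoters, and stood in those of ASNS (68 bases before the start) and, on the opposite strand as TTGCATCA, CHAC1 (209 bases before) and HERPUD1 (176 bases before). The promoters were HSPA5 at chr9:125241294-125241593 (minus strand), XBP1 at chr22:28800520-28800819 (minus strand), HERPUD1 at chr16:56931892-56932191 (plus strand), ASNS at chr7:97872359-97872658 (minus strand) and CHAC1 at chr15:40953221-40953520 (plus strand).
HSPA5: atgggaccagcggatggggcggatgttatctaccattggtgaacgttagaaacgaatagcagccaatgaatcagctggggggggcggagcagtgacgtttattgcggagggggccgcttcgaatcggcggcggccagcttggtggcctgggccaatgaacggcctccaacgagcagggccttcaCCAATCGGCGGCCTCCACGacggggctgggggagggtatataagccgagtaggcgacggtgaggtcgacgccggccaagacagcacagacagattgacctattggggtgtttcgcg
XBP1: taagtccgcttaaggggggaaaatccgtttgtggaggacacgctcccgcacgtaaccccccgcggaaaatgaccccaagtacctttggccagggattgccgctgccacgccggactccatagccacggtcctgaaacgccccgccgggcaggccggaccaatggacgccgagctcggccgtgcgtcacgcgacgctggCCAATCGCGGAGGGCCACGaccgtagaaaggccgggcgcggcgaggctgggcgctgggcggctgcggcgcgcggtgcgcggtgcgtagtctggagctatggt
HERPUD1: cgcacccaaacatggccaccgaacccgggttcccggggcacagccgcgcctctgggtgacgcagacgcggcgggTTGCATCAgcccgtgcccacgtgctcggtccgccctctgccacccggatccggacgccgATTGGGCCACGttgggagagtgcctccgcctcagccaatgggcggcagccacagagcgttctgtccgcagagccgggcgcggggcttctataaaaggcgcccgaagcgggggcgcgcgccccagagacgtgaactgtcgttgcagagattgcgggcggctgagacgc
ASNS: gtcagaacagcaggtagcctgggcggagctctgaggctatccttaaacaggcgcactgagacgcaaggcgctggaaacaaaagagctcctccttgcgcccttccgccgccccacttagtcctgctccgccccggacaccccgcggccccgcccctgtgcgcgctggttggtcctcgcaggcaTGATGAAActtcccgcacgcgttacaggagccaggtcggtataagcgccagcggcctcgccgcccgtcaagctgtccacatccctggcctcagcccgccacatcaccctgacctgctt
CHAC1: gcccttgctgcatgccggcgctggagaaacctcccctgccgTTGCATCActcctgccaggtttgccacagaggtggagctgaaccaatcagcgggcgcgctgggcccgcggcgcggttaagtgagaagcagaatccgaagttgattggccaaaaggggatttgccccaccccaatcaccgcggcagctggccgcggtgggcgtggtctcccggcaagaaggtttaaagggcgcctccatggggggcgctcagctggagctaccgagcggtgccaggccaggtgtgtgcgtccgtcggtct
Neither the core of the unfolded protein response element (TGACGTGG, 0.729% of promoters) nor the cyclic AMP response element (TGACGTCA, 1.85%) was found in any of the 10 windows, and the promoters of ATF4, DDIT3, TRIB3, SESN2 and DDIT4 held no exact match to any of the 5 motifs. Near matches were not searched for, and the DDIT3 window holds ccaatgccggcgtgccact, which departs from ERSE only in its last base. The marked stretches are matches of letters in a short window and not measured binding sites.

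The libraries were shallow outside a single entry. RNA5-8S5, a 5.8S ribosomal RNA entry, took 76.9 to 79.6% of the reads of the low-density libraries and 51.5% of those of HD, which left between 1100967 and 1645539 reads in the former and 449661 in HD. HD stood apart in other ways, with a read for 240 of 386 olfactory receptor genes against 14 to 37 in the other libraries, and with ribosomal protein genes at 1.83% of reads outside RNA5-8S5 against 7.75 to 9.18%. Leukocyte markers summed to 56 reads in HD against 0 to 3, and endothelial markers to 76 against 3 to 6, while the mesenchymal markers of the line were detected in every library, 6 or 7 of 7, but summed to 992 TPM in HD against 4669 to 7186 TPM at low density. Of 6 epithelial markers in the files, EPCAM and ESRP1 were at 0 in each low-density library and CDH1 had 0 to 6 reads there and 34 in HD, while KRT8 had 1015 to 1742 reads at low density, KRT18 108 to 317 and KRT19 6 to 132. The list summed to between 637 and 905 TPM at low density and 630 in HD. The part of these properties in the HD values below was not tested. The response genes together had 1822 reads in LD against 1249 (IL-6), 1393 (IL-8), 1875 (RM) and 119 (HD), which is 1107, 1134, 1243, 1307 and 265 in every 1000000 reads outside RNA5-8S5. Fewer cells that express a gene and less of its RNA per cell cannot be told apart in such bulk samples.

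Levels are given as TPM, a scale per transcript length, rescaled to 1000000 in each library. A gene was counted as differing where log2(TPM + 1) was at least 1 unit apart, among the 21163 genes that reached 1 TPM in at least 1 library. Of the 10 genes, 9 were compared. XBP1 was listed at 0 reads in all 5 libraries, 1 of 5552 such entries among the 27189, which also include BOP1, a gene of ribosome assembly used by growing cells, so its 0 is given only as listed. Folds are ratios of a gene's share of the reads outside RNA5-8S5, with the exact 95% interval of the ratio, which covers counting error only, and reads of amplified cDNA are not independent molecules.

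ATF4, the factor at the head of the programme, was the most abundant of the set per length in LD, and on the TPM scale no library differed from LD by 1 log2 unit. It was listed at 230 TPM in LD (443 reads), 218 in IL-6 (286 reads), 128 in IL-8 (185 reads), 181 in RM (334 reads) and 213 in HD (72 reads). The lowest level in TPM was that of IL-8, 1.63-fold below LD in read share (1.37 to 1.95), a difference of -0.84 on the log2(TPM + 1) scale. That difference ran from -0.87 to -0.35 under 10 other settings. The median over genes with at least 10 reads in the higher library was itself -0.43 with IL-8, and 32.5% of them lay at least as far below LD as ATF4. IL-6 and LD could not be separated by counting, with a ratio of 0.965 (0.829 to 1.12). The log2 difference of RM from LD was -0.35 and turned positive under 3 of 6 other scalings, up to 0.39. The HD value rests on the scale, with a level near that of LD in TPM (-0.11) but 1.68-fold lower in read share (1.31 to 2.19), and log2 differences from -1.30 with TMM factors to 0.32 with CPM of all reads.

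The genes tied to prolonged stress were highest in RM or IL-6. DDIT3 (CHOP), a factor that favours cell death under lasting stress, had 14 reads in LD (11.7 TPM), 11 in IL-6 (13.5 TPM), 10 in IL-8 (10.4 TPM), 35 in RM (30.4 TPM) and none in HD. RM therefore stood alone above the other libraries, 2.87-fold above LD (1.50 to 5.77), 2.44-fold above IL-6 (1.21 to 5.33) and 2.73-fold above IL-8 (1.33 to 6.19). At the LD share HD would have held 3.83 reads of DDIT3, and the counting interval of the ratio, from 0 to 1.10, did not separate HD from LD, so a difference was not detectable at this depth.

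TRIB3, a pseudokinase induced by ATF4 and CHOP that feeds back on them, had 52 reads in LD (16.1 TPM), 50 in IL-6 (22.2 TPM), 28 in IL-8 (11.6 TPM), 77 in RM (24.3 TPM) and 3 in HD (5.47 TPM). Its order over the libraries was that of DDIT3, RM, IL-6, LD, IL-8 and HD. RM was 1.70-fold above LD (1.18 to 2.46), a log2 difference of 0.57 that stayed under 1, and 2.15-fold above IL-8 (1.38 to 3.44), where it was 1.00, but not separable from IL-6 at 1.18-fold (0.817 to 1.72). HD was 4.74-fold below LD (1.53 to 23.7). Of genes with at least 10 reads in the higher library of that pair, 20.9% lay at least as far below LD on the log2 scale.

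CHAC1, which breaks down glutathione and is a target of ATF4, differed from this order. It had 11 reads in LD (5.23 TPM), 23 in IL-6 (15.9 TPM), 4 in IL-8 (2.81 TPM), 21 in RM (10.3 TPM) and 5 in HD (14.0 TPM). IL-6 was 3.13-fold above LD (1.46 to 7.10) and RM was 2.19-fold above LD (1.01 to 5.03), with log2 differences of 1.44 and 0.86. RM was also 4.10-fold above IL-8 (1.38 to 16.4). In HD the log2 difference was 1.27 on 5 reads, with a ratio of 1.66 that could not be told from 1 (0.453 to 5.19).

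**Figure D1:**
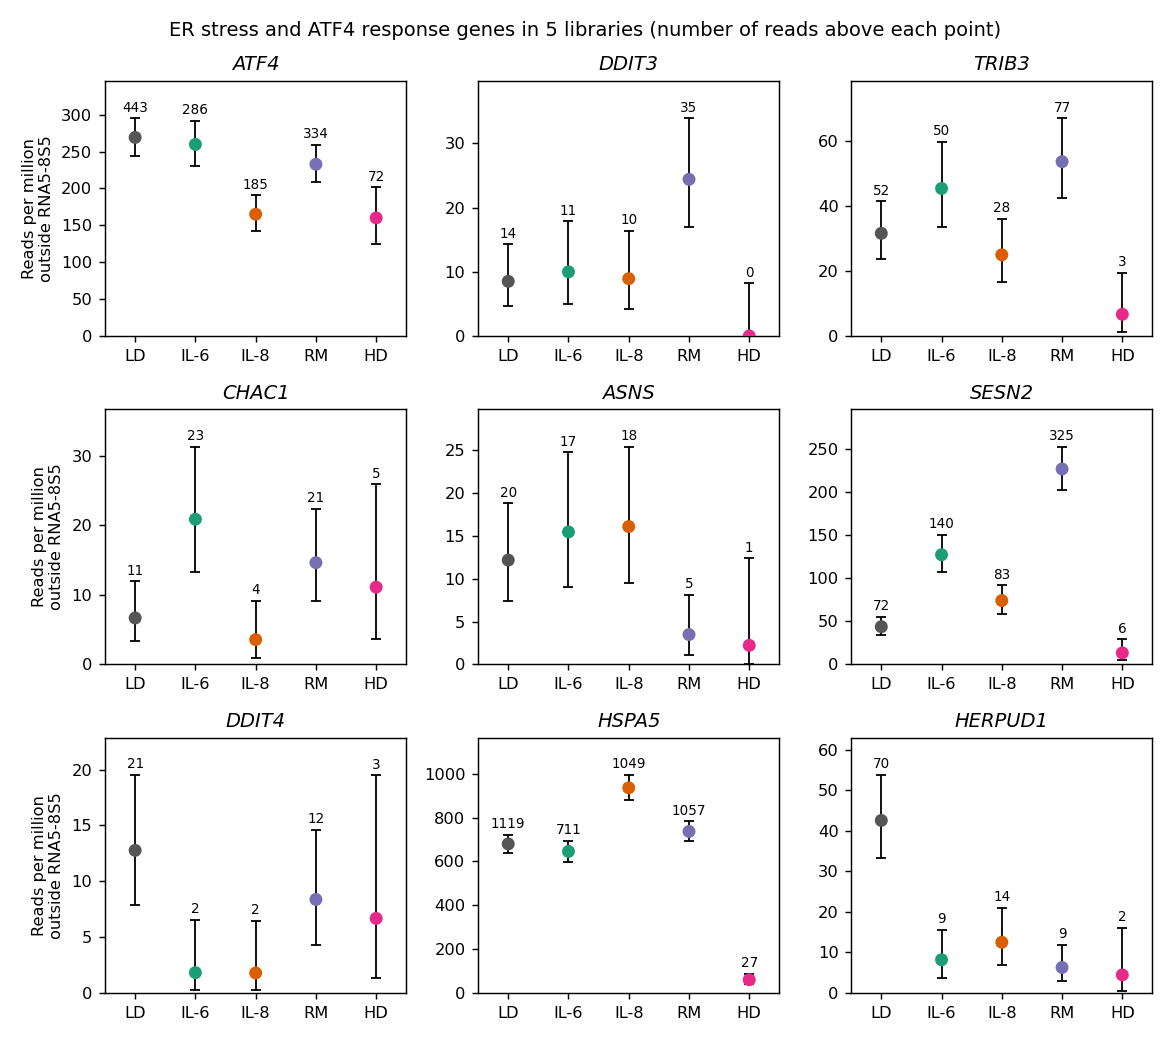
Reads in every 1000000 outside RNA5-8S5 (vertical axis, linear from 0) for the 9 genes with reads, by library on the horizontal axis; points are the values of 1 library each, bars the exact 95% counting interval, and the number over each point its count of reads. SESN2 is highest in RM with 325 reads, HERPUD1 highest in LD with 70, and HSPA5 lowest in HD with 27.

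Of the genes of metabolic supply and growth control, SESN2 gave the best counted differences. SESN2 (sestrin 2), a leucine sensor that restrains mTORC1 and is induced by ATF4, had 72 reads in LD (14.6 TPM), 140 in IL-6 (41.0 TPM), 83 in IL-8 (22.5 TPM), 325 in RM (67.8 TPM) and 6 in HD (7.16 TPM). All 3 cytokine libraries were above LD, RM by 5.18-fold (4.0 to 6.78), IL-6 by 2.91-fold (2.17 to 3.92) and IL-8 by 1.69-fold (1.22 to 2.35). RM was also above IL-6 by 1.78-fold (1.46 to 2.19) and above IL-8 by 3.06-fold (2.40 to 3.94), so none of the intervals between RM and the single cytokines included 1. Among the 9777 genes with at least 10 reads in the higher library of the pair, 3.35% were at least as far above LD in RM as SESN2. On the log2 scale the differences of IL-6 and IL-8 from LD, 1.43 and 0.60, summed to 2.03, beside 2.14 in RM. Under median-ratio scaling of TPM they were 1.40 and 1.02, beside 2.86 in RM, so how near RM comes to the sum depends on the scaling. HD lay 3.28-fold below LD (1.43 to 9.23), on 6 reads. Of genes with at least 10 reads in the higher library of that pair, 27.5% lay at least as far below LD on the log2 scale.

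ASNS, which makes asparagine and whose promoter carries an ATF4 element, had 20 reads in LD (6.59 TPM), 17 in IL-6 (9.43 TPM), 18 in IL-8 (8.46 TPM), 5 in RM (2.23 TPM) and 1 in HD (2.55 TPM). RM was the lowest of the low-density libraries, 3.49-fold below LD (1.27 to 11.9), 4.43-fold below IL-6 (1.57 to 15.4) and 4.61-fold below IL-8 (1.65 to 15.9). Of genes with at least 10 reads in the higher library of RM and LD, 26.4% lay at least as far below LD as ASNS. The difference of RM from LD, -1.23 log2 units, kept its sign under all 6 other scalings. It passed 1 unit under 5 of 9 other settings, among them the run without a filter, which could not change it. The single read of HD gave a ratio of 0.183 to LD (0.0044 to 1.14).

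DDIT4 (REDD1), another brake on mTORC1 that also answers to hypoxia, had 21 reads in LD (8.81 TPM), 2 in IL-6 (1.22 TPM), 2 in IL-8 (1.12 TPM), 12 in RM (5.20 TPM) and 3 in HD (7.42 TPM). Both single cytokines were below LD, IL-6 by 7.03-fold (1.72 to 61.8) and IL-8 by 7.15-fold (1.75 to 62.9), whereas RM gave a ratio to LD of 0.656 (0.294 to 1.40). RM was above IL-6 by 4.60-fold (1.03 to 42.4) and above IL-8 by 4.69-fold (1.04 to 43.1). The differences of the single cytokines from LD summed to -4.35 log2 units beside -0.66 in RM. This was the widest gap between sum and RM among the 9 genes, and it rests on 2 reads in each cytokine library. The next widest were those of ASNS, with a sum of 0.78 beside -1.23 in RM, and DDIT3, with 0.03 beside 1.30. The 3 reads of DDIT4 in HD gave a ratio to LD of 0.523 (0.0998 to 1.75).

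Of the targets on the chaperone side, HSPA5 stayed within 1 log2 unit of LD in the cytokine libraries and HERPUD1 did not. HSPA5 (BiP), the main chaperone of the ER lumen and the protein that keeps the sensors silent, had 1119 reads in LD (200.5 TPM), 711 in IL-6 (185 TPM), 1049 in IL-8 (252 TPM), 1057 in RM (196 TPM) and 27 in HD (28.2 TPM). At low density its log2 differences from LD were -0.11 with IL-6, 0.33 with IL-8 and -0.04 in RM. The RM difference turned positive under 4 of 6 other scalings, up to 0.71. Under 10 other settings the IL-8 difference ran from 0.28 to 0.80. The ratio to LD was 0.950 with IL-6 (0.863 to 1.04), 1.38 with IL-8 (1.26 to 1.50) and 1.08 in RM (0.995 to 1.18). HD lay 11.3-fold below LD (7.74 to 17.3), with 27 reads where the LD share would have given 305.8.

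HERPUD1, a membrane protein that helps clear misfolded proteins from the ER, had 70 reads in LD (26.7 TPM), 9 in IL-6 (6.37 TPM), 14 in IL-8 (7.83 TPM), 9 in RM (3.55 TPM) and 2 in HD (4.91 TPM). LD was above each of the other 4 libraries, by 5.20-fold over IL-6 (2.59 to 11.9), 3.40-fold over IL-8 (1.90 to 6.55), 6.78-fold over RM (3.38 to 15.4) and 9.56-fold over HD (2.55 to 80.5). The log2 differences of -1.91, -1.65, -2.61 and -2.23 stayed past 1 unit under all 9 other settings, although running without a filter could not change them. RM and IL-6 had the same number of reads and gave a ratio of 0.768 (0.270 to 2.18).

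Ratios of reads within a library do not depend on how libraries are scaled to each other. HERPUD1 had 6.26 reads for every 100 of HSPA5 in LD (4.84 to 7.97), 1.27 with IL-6 (0.576 to 2.42), 1.33 with IL-8 (0.727 to 2.25) and 0.851 in RM (0.388 to 1.62), and the intervals of the cytokine libraries did not reach that of LD. In HD the same ratio was 7.41 with an interval of 0.854 to 29.5, which holds the values of LD, IL-6 and IL-8. SESN2 had 16.3 reads for every 100 of ATF4 in LD (12.5 to 20.9), 49.0 with IL-6 (39.7 to 60.1), 44.9 with IL-8 (34.2 to 58.4) and 97.3 in RM (83.3 to 113.7). DDIT3 had 3.16 for every 100 of ATF4 in LD (1.71 to 5.36) and 10.5 in RM (7.18 to 14.9). IL-6 at 3.85 (1.90 to 6.99) and IL-8 at 5.41 (2.55 to 10.2) lay between them, and the intervals of IL-8 and RM overlapped. In HD the DDIT3 ratio was 0 (0 to 5.26). ASNS had 4.51 for every 100 of ATF4 in LD (2.73 to 7.06), 5.94 with IL-6 (3.41 to 9.69), 9.73 with IL-8 (5.64 to 15.8) and 1.50 in RM (0.483 to 3.53), and the intervals of LD and RM overlapped.

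**Figure D2:**
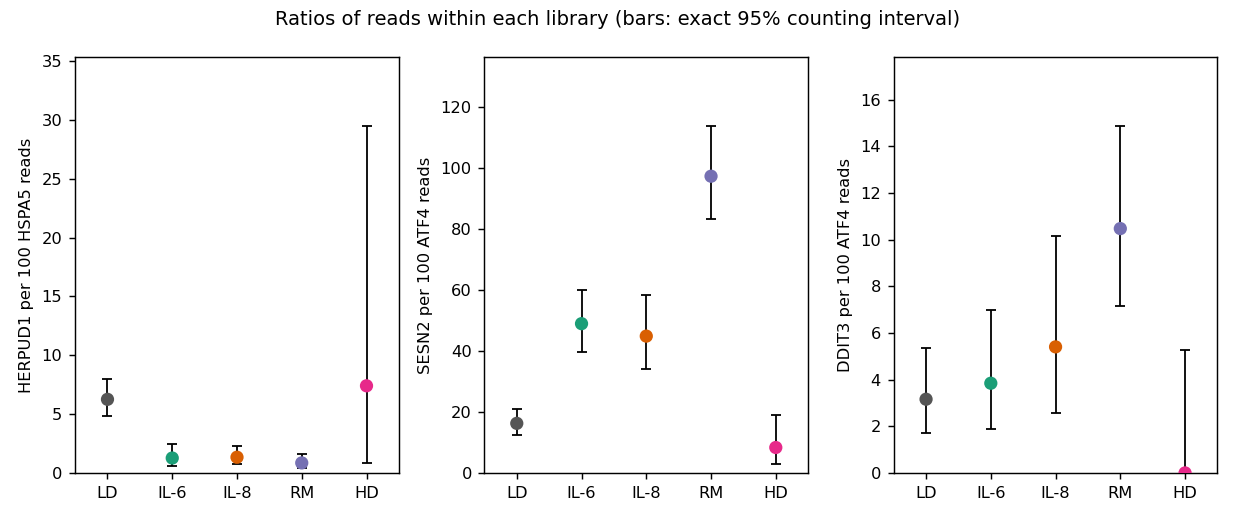
Reads of HERPUD1 for every 100 of HSPA5, and of SESN2 and DDIT3 for every 100 of ATF4 (vertical axes, linear from 0), in each of the 5 libraries; points are single libraries and bars exact 95% counting intervals. SESN2 stands at 97.3 in RM and 16.3 in LD, and HERPUD1 at 6.26 in LD and 0.851 in RM.

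Read together by condition, the response genes did not move as a block. With IL-6, 2 of the 9 differed upwards by at least 1 log2 unit (CHAC1 and SESN2) and 2 downwards (DDIT4 and HERPUD1), where 9.84% and 7.47% of all genes compared did so. With IL-8, 0 of 9 were higher (7.99% of all genes) and 2 were lower (DDIT4 and HERPUD1; 16.4%). In RM, 2 were higher (DDIT3 and SESN2; 6.44%) and 2 were lower (ASNS and HERPUD1; 20.4%). The median difference of the 9 genes was 0.18 with IL-6, -0.44 with IL-8 and -0.04 in RM, and the median of all genes compared was 0 in each. Among the genes with at least 10 reads in the higher library of the pair, 9868 with IL-6, 9742 with IL-8 and 9777 in RM, the medians were -0.03, -0.43 and -0.62. These genes include the 9. Of them, 10.5% were higher and 10.7% lower with IL-6, 11.1% and 26.9% with IL-8, and 10.1% and 34.9% in RM.

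Scaling bears on the IL-8 and RM counts. With IL-8, 1 of the 9 genes (SESN2 at 1.02) was higher under median-ratio scaling of TPM and under DESeq2's size factors. The median of the 9 with IL-8 was then -0.02 and 0.0046. Under median-ratio scaling of TPM, edgeR's TMM factors and DESeq2's size factors, 4 of the 9 genes were higher in RM than in LD and 1 was lower, as TRIB3 and CHAC1 passed 1 log2 unit and ASNS no longer did. The median of the 9 in RM lay between 0.54 and 0.71 under these 3 scalings.

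RM was also set against each cytokine alone. Against IL-8, 5 of the 9 genes were higher in RM, where 9.87% of all genes were, and 1 was lower (14.9%). The higher ones were CHAC1, SESN2, DDIT4, DDIT3 and TRIB3, with differences of 1.57, 1.55, 1.55, 1.46 and 1.00 log2 units, and the lower one was ASNS at -1.55. Against IL-6, 2 were higher (DDIT4 at 1.48 and DDIT3 at 1.12; 6.34% of all genes) and 1 was lower (ASNS at -1.69; 22.7%). Among genes with at least 10 reads in the higher library of the pair, 17.3% were higher and 24.7% lower against IL-8, and 10.9% and 34.3% against IL-6. The counts for the 9 genes moved with the settings. Against IL-6, 0 were higher with CPM of all reads, 0 were higher and 0 lower with a pseudocount of 5, and 3 were higher and 0 lower with DESeq2 size factors. Against IL-8 the count of 5 fell to 2 with a pseudocount of 5. These pairs share the RM library, and those with LD share the LD library, so their values are given side by side without comparing the comparisons.

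In HD, 5 of the 9 genes were lower than in LD (DDIT3, HSPA5, HERPUD1, TRIB3 and ASNS), where 17.9% of all genes compared were, and 1 was higher (CHAC1), where 61.9% were. Of the 12899 genes with at least 10 reads in the higher library, which include the 9, 26.4% were lower and 48% higher. The median difference of the 9 was -1.10, or -0.93 with DDIT3 set at a floor of 3 reads in HD, beside 1.86 for all genes and 0.80 for those with at least 10 reads in the higher library. The genes of the set other than ATF4 and HSPA5 all had under 10 reads in HD, and for DDIT3, ASNS and CHAC1 the counting interval of the ratio included 1. By that interval alone 5 of the 9 genes were lower (ATF4, TRIB3, SESN2, HSPA5 and HERPUD1), where 20.2% of all genes with a read in the pair were, and 0 were higher, where 43.3% were. The HD median over all genes fell from 1.86 to 0.46 with TMM factors, under which 7 of the 9 genes were lower and 0 higher, whereas CPM of all reads gave 3 lower and 1 higher and a pseudocount of 5 gave 4 lower and 0 higher.

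**Figure D3:**
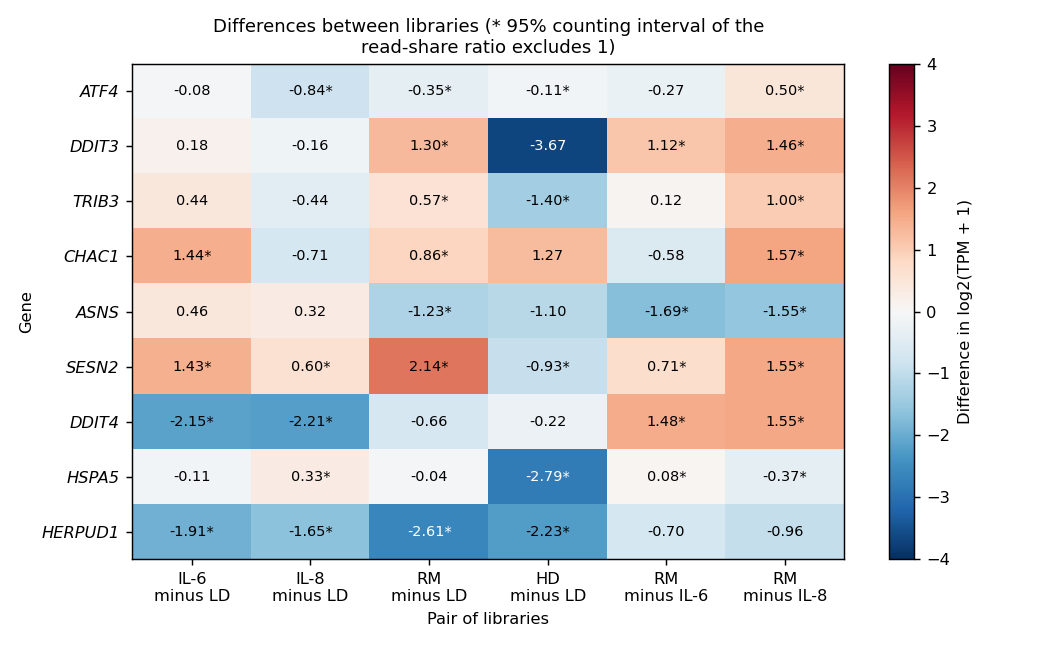
Difference in log2(TPM + 1) for the 9 genes (rows) in 6 pairs of libraries (columns), on a colour scale from -4 to 4 with red for higher in the first library; an asterisk marks a ratio of read shares whose exact 95% counting interval excludes 1. HERPUD1 is below LD in all 4 comparisons with it, and SESN2 and DDIT3 reach 2.14 and 1.30 in RM.

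By their pattern over the 4 differences from LD, the genes most like ATF4 among 988 with at least 30 reads in every library were RPL27A, SWAP70 and AP2S1, at Euclidean distances of 0.24, 0.33 and 0.34 log2 units. Those most like HSPA5 were RHOC (0.19), ACTN1 (0.23) and S100A16 (0.31), all between -2.77 and -2.59 in HD. HSPA5 itself, with 27 reads in HD, would not pass that limit on reads. For DDIT3 the nearest genes were EEF1G (1.10), FARSA (1.16) and TAGLN2 (1.22). DDIT3 would not pass the limit either and its HD difference depends on the pseudocount, so its distances do not show how near other genes lie.

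The wider pathway was described by 87 further genes in 9 lists, of which 84 were compared. With IL-6, 4 stood above LD and 4 below, 4.76% each beside 9.84% and 7.47% of all genes, and these counts became 8 and 7 with CPM outside RNA5-8S5 and 8 and 10 with a pseudocount of 0.1. With IL-8 they were 7 and 19, or 8.33% and 22.6% beside 7.99% and 16.4%. Among genes with at least 10 reads in the higher library the lower share with IL-8 was 23.0% of the list genes and 26.9% of all. In RM the counts were 6 and 26, or 7.14% and 31.0% beside 6.44% and 20.4% of all genes. The lower share in RM among genes with at least 10 reads in the higher library was 33.8% of the list genes and 34.9% of all. The IL-8 and RM splits rest on the scaling, since median-ratio scaling gave 11 higher and 7 lower for IL-8 and 15 and 13 for RM, and TMM factors gave 10 and 9 and 10 and 15. The same change of scaling moved the split over all genes in RM from 6.44% higher and 20.4% lower to 12.7% and 11.1%. In HD 22 were higher and 35 lower, or 26.2% and 41.7% beside 61.9% and 17.9% of all genes, which became 9 and 52 with TMM factors. The 24 differences of single genes named below from the lists kept their sign under each of 6 other scalings, and 23 stayed past 1 log2 unit, the exception being ATF3 with IL-6.

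**Figure D4:**
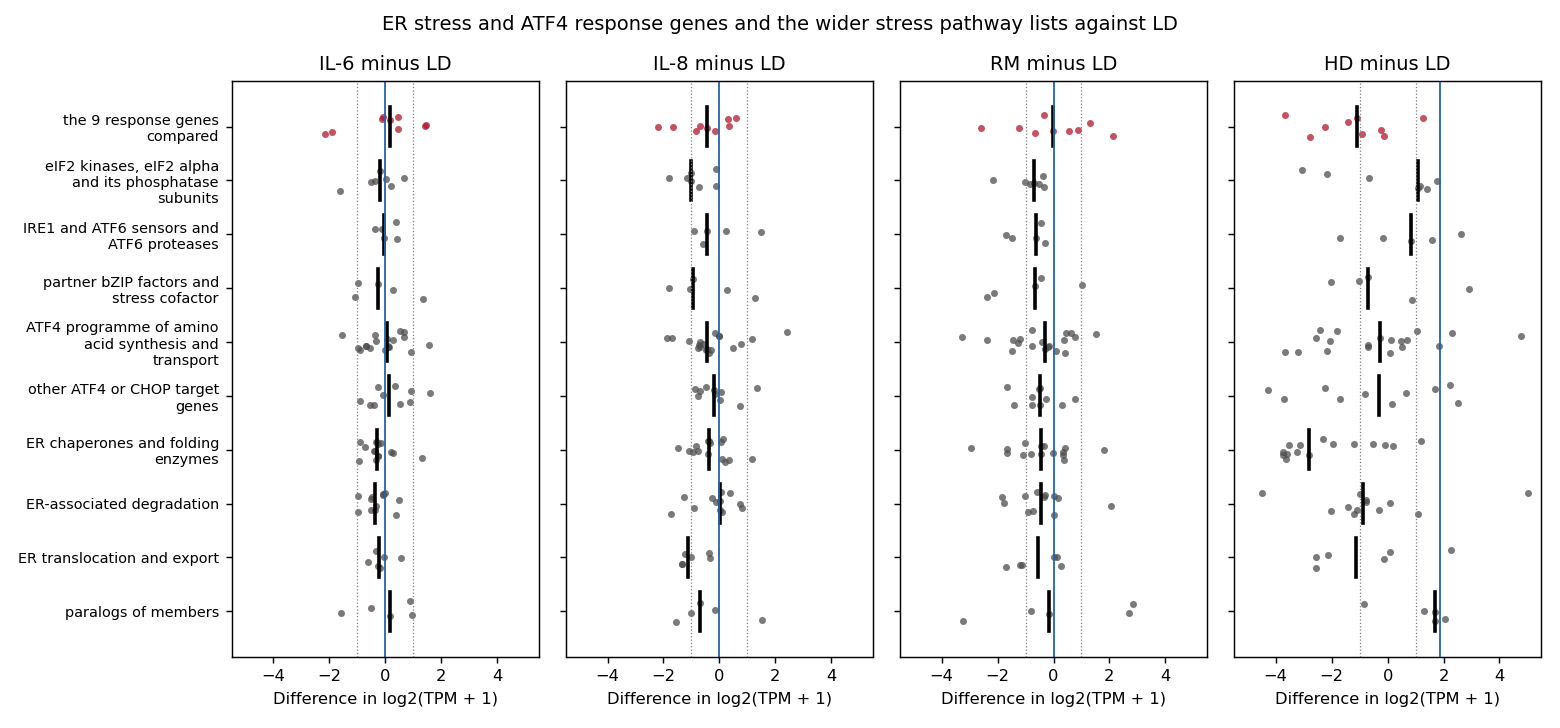
Difference in log2(TPM + 1) from LD (horizontal axes) for the 9 response genes compared (red) and the genes of 9 pathway lists (grey, 1 point per gene) in IL-6, IL-8, RM and HD; thick bars are list medians, the blue line the median of all genes compared and dotted lines 1 log2 unit. ER chaperones and folding enzymes have a median of -2.83 in HD, where the median of all genes is 1.86.

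Of the 3 sensors, EIF2AK3 (PERK) had 0 to 2 reads in every library, and ERN1 (IRE1) had 0 to 2 at low density and 7 in HD, while ATF6 had 180 reads in LD against 116 (IL-6), 85 (IL-8), 47 (RM) and 19 (HD), 3 genes singled out after their values were seen. Of the 7 genes of the eIF2 list, 0 were higher and 1 was lower with IL-6, 0 and 4 with IL-8, which became 0 and 1 with TMM factors, and 0 and 2 in RM. In HD 4 were higher and 2 lower, which became 0 and 3 with TMM factors, so the direction there rests on the scaling. Beside the 4 lower with IL-8, 16.4% of all genes compared were lower, and 26.9% of those with at least 10 reads in the higher library. PPP1R15B, the steady partner of the phosphatase that restores eIF2 alpha, had 54 reads in LD against 9 (IL-6), 8 (IL-8), 6 (RM) and 27 (HD). It was 4.01-fold below LD with IL-6 (1.97 to 9.25) and 4.60-fold with IL-8 (2.17 to 11.2). In HD it stood at 20.6 TPM, beside 7.14 TPM in LD. Of the 5 sensors and ATF6 proteases, ATF6B, a relative of ATF6, was 3.23-fold above LD with IL-8 (2.37 to 4.44) on 134 reads against 61.

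Among the partner factors, ATF3, which pairs with other bZIP proteins and is itself stress induced, had 7 reads in LD against 14 (IL-6), 0 (IL-8), 3 (RM) and 13 (HD). It was 2.99-fold above LD with IL-6 (1.13 to 8.75) and 6.80-fold in HD (2.52 to 20.1). The list of 5 gave 1 higher and 1 lower with IL-6, 1 and 2 with IL-8, 1 and 2 in RM and 1 and 2 in HD. ADM2, a peptide hormone gene of the other ATF4 and CHOP targets, was 3.99-fold above LD with IL-6 (2.00 to 8.50). BBC3, the death gene PUMA in the same list, had 404 reads in LD and 3 in HD, 36.8-fold lower (12.5 to 179.2).

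The amino acid genes of the ATF4 programme, 19 in number, gave 1 higher and 1 lower with IL-6, 2 and 3 with IL-8, 1 and 6 in RM, which became 6 and 3 under median-ratio scaling, and 4 and 7 in HD, which became 2 and 11 with TMM factors. The shares of all genes for each comparison, given above for the response genes, apply to every pathway list, those already described and those that follow. SLC6A9, a glycine transporter, had 43 reads in LD against 37 (IL-6), 196 (IL-8), 1 (RM) and 5 (HD). It was thus 6.69-fold above LD with IL-8 (4.79 to 9.54), and the single read of RM gave a ratio to LD of 0.0267 (0.00066 to 0.157). PCK2, the mitochondrial enzyme that makes phosphoenolpyruvate, had 132 reads in LD and 106 in RM but 29 in IL-6 and 25 in IL-8, 3.05-fold (2.03 to 4.72) and 3.60-fold (2.33 to 5.76) below LD. PSPH, the last enzyme of serine synthesis, was 16.2-fold above LD in HD (7.00 to 43.6) on 31 reads against 7.

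The ER chaperones and folding enzymes, the list closest to HSPA5 in function, held 15 genes. Of these, 1 was higher and 0 lower with IL-6, 1 and 2 with IL-8, and 1 and 5 in RM, the last of which became 4 and 1 under median-ratio scaling. In HD 1 was higher and 11 lower, with a median of -2.83, and between 10 and 13 were lower under each of the scalings run. Of all genes compared, 61.9% were higher and 17.9% lower in HD, and 26.4% were lower among those with at least 10 reads in the higher library. SDF2L1, a partner of ER chaperones, was the higher gene with IL-6, at 2.59-fold (1.56 to 4.37), with 26 reads in LD against 45 (IL-6), 44 (IL-8), 91 (RM) and 3 (HD). CRELD2, a stress-induced ER protein, had 109 reads in LD and 11 in RM, 8.64-fold lower (4.64 to 17.8). MANF, a secreted stress protein, had 492 reads in LD and 6 in HD, 22.4-fold lower (10.2 to 61.4).

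ER-associated degradation, where HERPUD1 acts, was listed by 12 genes, of which 0 differed with IL-6, 2 were lower with IL-8, and RM gave 1 above LD and 3 below. HD gave 2 above and 5 below, the latter becoming 8 under median-ratio scaling and 9 with TMM factors, and with IL-8 2 became higher under both. OS9, a lectin that hands glycoproteins to the degradation machinery, had 725 reads in LD against 358 (IL-6), 959 (IL-8), 3306 (RM) and 42 (HD), and RM was 5.23-fold above LD (4.83 to 5.68). SYVN1, the ubiquitin ligase of that machinery and a partner of HERPUD1, was 3.61-fold below LD with IL-8 (2.13 to 6.46). VCP, the ATPase that pulls proteins out of the membrane, had 3388 reads in LD and 27 in HD, 34.3-fold lower in read share (23.5 to 52.1). DERL3 had 15 reads in HD, 1 in IL-8 and 0 in the other libraries. The 6 genes of ER translocation and export gave 0 higher and 0 lower with IL-6, 0 and 4 with IL-8, 0 and 3 in RM and 1 and 3 in HD, of which the IL-8 and RM counts became 0 and 0 under median-ratio scaling.

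Paralogs of the response genes gave the largest increases in RM under the naming rule. SESN1, the sister of SESN2, had 5 reads in LD against 9 (IL-6), 16 (IL-8), 57 (RM) and 3 (HD), so that RM was 13.1-fold above LD (5.29 to 41.8) and IL-8 4.70-fold (1.64 to 16.4). TRIB2, the relative of TRIB3, had 38 reads in LD against 51 (IL-6), 25 (IL-8), 247 (RM) and 21 (HD), and RM was 7.46-fold above LD (5.28 to 10.8). HERPUD2 had 84 reads in LD against 17 (IL-6), 21 (IL-8), 5 (RM) and 8 (HD), 14.6-fold below LD in RM (6.03 to 46.3) and 3.31-fold with IL-6 (1.95 to 5.94). Of the 7 paralogs 5 were compared, and 2 were higher and 1 lower in RM.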

How the data were processed

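RNA-seq was measured in 5 libraries of HT1080 cells, 1 per condition, grouped by their labels. Per the labels, RNA was selected by oligo-dT, copied to cDNA, amplified with phi29 polymerase, tagmented (Nextera XT) and sequenced as 50 bp single-end reads. The authors deposited a whole-number read count for each gene, without normalization, and a TPM value for each gene, which accounts for transcript length and sequencing depth. The submitters' processing notes name CASAVA 1.4, FastQC, Bowtie, Bowtie2 2.3.1, RSEM 1.2.25 and the build GRCh37 (hg19). The annotation and settings are not given in the sources used here, and a cell-free collagen control was not analysed here.

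TPM was brought to a sum of 1000000 in every library and compared as log2(TPM + 1) over genes that reached 1 TPM in some library, with a difference of at least 1 log2 unit counted. With 1 library per group no test was made. Ratios of read shares outside RNA5-8S5 have exact 95% conditional binomial intervals, and the floor is 3 reads (from 1.82 in every 1000000 reads outside RNA5-8S5 in LD to 6.67 in HD). Total counts ran from 926376 in HD to 7118545 in LD.

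The response genes, pathway lists and marker lists were chosen with earlier results of these data known. From the lists, up to 3 genes per direction and comparison with LD were named, by size of the difference among those past 1 log2 unit with at least 10 reads in the higher library. Likeness to ATF4, DDIT3 and HSPA5 was the Euclidean distance over the 4 differences from LD, with the 3 nearest genes named. Reads of ATF4, ASNS and XBP1 may be shared with processed pseudogenes, of which GENCODE 29 names 4, 4 and 1. None of these has an entry in the files. Promoters came from a RefSeq table on GRCh38.p14, matched by symbol, and no coordinate of the authors' build was used.

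The alternatives were pseudocounts of 0.1 and 5, median-ratio scaling of TPM, CPM of all reads or of those outside RNA5-8S5, edgeR's TMM factors, DESeq2's size factors, no filter, at least 10 reads in all libraries and a threshold of 2 log2 units. TPM rescaled without RNA5-8S5 was added after the data were seen. Scripts were tested on simulated data. The versions were R 4.3.3, edgeR 4.0.16, DESeq2 1.42.0, Python 3.11.15, matplotlib 3.10.9, pandas 2.3.3, numpy 2.4.6 and scipy 1.17.1.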

Additional observations from a re-analysis of the deposited data

How the results depend on the processing

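No paired analysis was possible because each condition is 1 library, and for the same reason no replicate could be left out. Requiring at least 10 reads in all libraries left ATF4 and HSPA5 of the 9 genes, so the number that differed from LD was 0 with each cytokine alone, 0 in RM and 1 in HD. A threshold of 2 log2 units left 1 with each cytokine alone, 2 in RM and 3 in HD. The other alternatives kept these 4 numbers within 1.5 times. The median differences of the genes ran from -0.10 to 0.22 with IL-6, -0.47 to 0.0046 with IL-8, -0.19 to 0.71 in RM and -2.03 to -0.69 in HD. Of the 25 differences of single response genes past 1 log2 unit over the 6 pairs of libraries, 25 kept their sign under the 9 alternatives other than the limit of 10 reads, which 24 could not be run under, and 14 stayed past 1 unit. Among the 9 alternatives only the 6 scalings could change a sign. A pseudocount cannot reverse a difference, and running without a filter leaves the value of a single gene as it was. In HD, ATF4 ran from -1.30 to 0.32, ASNS from -2.03 to -0.62, TRIB3 from -2.09 to -0.97 and CHAC1 from 0.10 to 1.40, and SESN2, short of 1 unit at -0.93, from -1.89 to -0.57. Depth limits DDIT3, DDIT4, ASNS and CHAC1, none of which exceeded 35 reads in any library. The cause of these shifts was not tested.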
